A study of Drosophila melanogaster with 10 samples.

Results

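The vacuolar ATPase is the proton pump that acidifies lysosomes and endosomes, and its subunits are encoded in Drosophila melanogaster by the genes whose names begin with Vha. The genes were chosen by that name alone, and 32 of the 14310 genes in the expression table carried it. They comprised 13 genes of the cytosolic V1 sector, 18 genes of the membrane V0 sector and 1 gene of an accessory protein. RNA was sequenced from whole midguts of adult males in 10 libraries, each from 20 midguts, and the labels call the 5 libraries of each group biological replicates. Males labelled dHNF4 RNAi were w/Y and carried the driver mex-GAL4/+ together with the transgene UAS-dHNF4 RNAi NIG9310-R2/+. The driver is active in enterocytes, which absorb nutrients in the midgut, and there it switches on an RNA hairpin against the nuclear receptor gene Hnf4. Control males were w1118/Y and carried the same hairpin transgene, also as UAS-dHNF4 RNAi NIG9310-R2/+, but no driver. Both groups ate yeast alone, were kept at 25 °C and were dissected on day 7 of adult life. The driver was present in the dHNF4 RNAi group alone, and the labelled X chromosome (w or w1118) also differed between the groups. Effects of the driver, of the hairpin and of genetic background therefore cannot be told apart.

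The pump works as a rotary motor. ATP is hydrolysed in V1 by alternating A and B subunits, the central stalk of D and F turns, and subunits C, E, G and H form or hold the peripheral stalks. In V0 the turning ring of c and c'' subunits carries protons past subunit a, which holds the proton channels and directs the pump to particular membranes, while d couples the ring to the stalk and e is a small membrane protein. In the fly gut the pump is known for acidifying the lysosomes of enterocytes and for acid secretion by the copper cells of the middle midgut. Several subunits have more than 1 gene in the fly, and an abundant gene often stands beside copies transcribed mainly in the testis.

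Values are TPM, a level per transcript length that adds to a fixed total in each library. They keep no sequencing depth, so that the depth behind each value is unknown, and an increase of some genes lowers the share of all others. Differences are log2 fold changes of TPM + 1, dHNF4 RNAi over control, and a gene was called when limma's adjusted p over all 8784 genes tested was under 0.05. The median gene tested had a log2 fold change of 0.55, and after median-of-ratios scaling, which sets libraries level on the typical gene, this median was 0.01. The targeted gene Hnf4 measured 42.1, 46.1, 47.4, 44.7 and 48.0 TPM in the libraries labelled dHNF4 RNAi, against 36.6, 45.8, 41.8, 36.3 and 33.5 TPM in the control libraries. Its TPM was therefore not lower where the label says dHNF4 RNAi (log2 fold change 0.24, limma adjusted p = 0.0199), and after median-of-ratios scaling its sign turned (-0.35, adjusted p = 0.000815). Each direction given here rests on these labels, with dHNF4 RNAi set against control. In whole midguts a difference in cell numbers and a difference in RNA per cell cannot be told apart.

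Most subunits were encoded mainly by 1 abundant gene, and in TPM these genes differed little between the groups. The leading gene of each subunit other than a, with the accessory gene VhaAC45, makes 13 genes, and their log2 fold changes in TPM ran from -0.08 to 0.24. All 13 were lower after median-of-ratios scaling, at -0.68 to -0.36, where 35.8% of all genes tested were lower. Among all genes that averaged 100 TPM or more, as these 13 did, 57.8% were lower. Composition differed within subunit a, where Vha100-5 held a smaller share and Vha100-4 and Vha100-1 larger ones in dHNF4 RNAi libraries, and by smaller amounts within subunit e. Together the 32 genes held 9038, 8058, 8902, 9552 and 9184 TPM in the dHNF4 RNAi libraries, against 8035, 8861, 8437, 9877 and 8397 TPM in the control libraries. The groups overlapped, and the genes took 0.914% of the TPM of dHNF4 RNAi libraries and 0.892% of that of control libraries.

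The order of levels was nearly the same in both groups. Vha16-1, for the c subunit of the ring, led with 1473 ± 150 TPM in dHNF4 RNAi libraries and 1358 ± 155 TPM in control libraries (SD, n = 5 each). It ranked 149th of all genes by mean TPM in the dHNF4 RNAi group and 145th in the control group. Vha13, for subunit G, followed at 1156 ± 80.9 TPM in dHNF4 RNAi and 1218 ± 81.0 TPM in control libraries, and the ranges of these 2 genes overlapped in both groups. Vha68-2, Vha55 and Vha26 came next, then VhaPPA1-1, VhaM9.7-b and VhaAC45, whose ranges overlapped one another's in each group. Each of the 4 transcribed genes of subunit a stood lower in this order, and Vha100-5 took place 15 among the Vha genes in the dHNF4 RNAi group and place 12 in the control group. Summed over its genes, subunit a held 585 TPM in dHNF4 RNAi libraries and 703 TPM in control libraries. That was more than the 533 TPM and 499 TPM of subunit c''. Of the 32 genes, 15 averaged 100 TPM or more, 6 lay between 1 and 100 TPM and 11 averaged under 1 TPM.

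**Figure D1:**
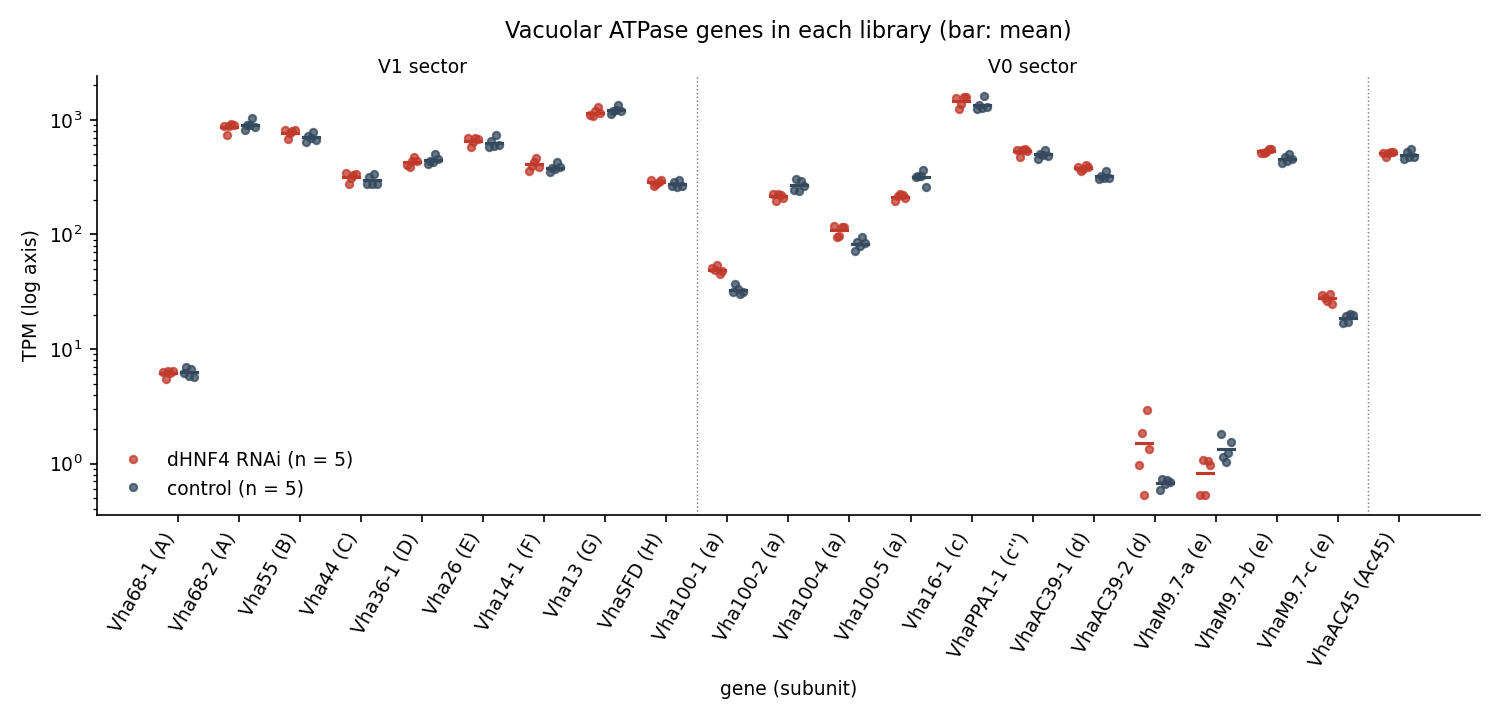
TPM in each library of the 21 Vha genes that averaged 1 TPM or more, on a log axis, with the genes ordered by subunit, dHNF4 RNAi libraries left of control libraries and short bars at the group means. In TPM Vha100-1, VhaM9.7-b and VhaM9.7-c stand higher in every dHNF4 RNAi library than in any control library, although after median-of-ratios scaling VhaM9.7-b is lower and the other two are not called, and Vha100-2 and Vha100-5 stand lower on both scales.

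None of the 9 V1 genes tested was called in TPM, where 83.2% of all genes tested were called. All 9 were lower after median-of-ratios scaling, where 71.4% of all genes tested were called and 35.8% were lower. Vha68-2, for the catalytic A subunit (2L), measured 891, 732, 880, 928 and 897 TPM in dHNF4 RNAi libraries, against 818, 910, 901, 1033 and 863 TPM in control libraries. The groups overlapped, dHNF4 RNAi replicate 2 was the lowest of all and control replicate 4 the highest. The log2 fold change was -0.06 (SE 0.081, limma adjusted p = 0.474), and -0.67 (SE 0.080, adjusted p = 2.35e-05) after median-of-ratios scaling. Vha68-1, a rarer gene of subunit A, measured 6.24, 5.51, 6.40, 6.21 and 6.38 TPM in dHNF4 RNAi libraries, against 6.21, 7.04, 5.82, 6.66 and 5.66 TPM in control libraries. It overlapped between the groups too and had a log2 fold change of -0.02 in TPM. Vha68-3 stayed at or under 0.423 TPM in every library.

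Vha55, which encodes subunit B, the partner of A in the ATP-hydrolysing head, measured 816, 675, 772, 796 and 809 TPM in dHNF4 RNAi libraries, against 639, 725, 693, 788 and 662 TPM in control libraries. Its log2 fold change of 0.14 (SE 0.074, limma adjusted p = 0.0954) was the highest among the V1 genes tested, and the groups overlapped. Leaving out control replicate 4 brought it to 0.19, and leaving out dHNF4 RNAi replicate 2 also brought it to 0.19, and both of these fits called it. Vha36-1, for subunit D of the central stalk, measured 406, 390.0, 436, 477 and 437 TPM in dHNF4 RNAi libraries, against 412, 437, 427, 502 and 456 TPM in control libraries. Vha14-1, for subunit F of the same stalk, measured 359, 395, 429, 464 and 391 TPM in dHNF4 RNAi libraries, against 348, 379, 369, 425 and 386 TPM in control libraries. Both genes overlapped between groups, with log2 fold changes of -0.06 for Vha36-1 and 0.09 for Vha14-1, and neither was called in TPM (limma adjusted p = 0.472 and 0.280).

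The peripheral stalk genes behaved alike. Vha44, for subunit C, which leaves the complex when V1 and V0 come apart, measured 341, 274, 311, 329 and 336 TPM in dHNF4 RNAi libraries, against 278, 317, 276, 337 and 278 TPM in control libraries. Vha26, for subunit E, measured 690.0, 582, 641, 701 and 685 TPM in dHNF4 RNAi libraries, against 576, 651, 593, 740.3 and 608 TPM in control libraries. In both genes dHNF4 RNAi replicate 2 was the lowest library of its group and control replicate 4 the highest of its own. Vha13, for subunit G, measured 1096, 1081, 1185, 1281 and 1137 TPM in dHNF4 RNAi libraries, against 1131, 1198, 1221, 1350 and 1188 TPM in control libraries. VhaSFD, for subunit H, which is needed for activity of the assembled pump, measured 298, 263, 276, 287 and 301 TPM in dHNF4 RNAi libraries, against 264, 290, 258, 301 and 263 TPM in control libraries. All 4 genes overlapped between groups, with log2 fold changes of 0.10 for Vha44, 0.06 for Vha26, -0.08 for Vha13 and 0.05 for VhaSFD. After median-of-ratios scaling these were -0.50, -0.54, -0.68 and -0.55, each with groups that did not overlap.

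Subunit a differed in composition between the groups. In dHNF4 RNAi libraries Vha100-2 and Vha100-5 were level with each other, and in control libraries Vha100-5 held the larger mean share. The 4 transcribed genes lie at separate loci apart from one pair. Vha100-4 (FBgn0038613, 3R:18386841-18389805, BDGP6.54) and Vha100-2 (FBgn0028670, 3R:18390323-18399169) are both on the minus strand with 517 bases between them. Vha100-1 (FBgn0028671) is on 3R at 29131193 to 29137980, plus strand, and Vha100-5 (FBgn0032373) on 2L at 11738948 to 11744524, plus strand. Each overlaps a gene on the opposite strand (Vha100-4 overlaps cona, Vha100-2 overlaps Vti1b, Vha100-1 overlaps Alg13 and Vha100-5 overlaps asRNA:CR44144). The kit keeps strand, but whether strand was used in quantification is not given in the sources used here, so the division of reads in these overlaps is uncertain.

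Vha100-5 measured 195, 215, 226, 221 and 206 TPM in dHNF4 RNAi libraries, against 319, 325, 325, 364 and 259 TPM in control libraries. Every dHNF4 RNAi library lay below every control library. The mean was 213 ± 12.4 TPM in dHNF4 RNAi libraries and 318 ± 37.6 TPM in control libraries, a log2 fold change of -0.57 (SE 0.085, limma adjusted p = 5.87e-05), and -1.17 (SE 0.083, adjusted p = 4.49e-07) after median-of-ratios scaling. Vha100-2 measured 224, 196, 223, 222 and 210 TPM in dHNF4 RNAi libraries, against 244, 303, 239, 294 and 265 TPM in control libraries. Here too the groups did not overlap, and the log2 fold change was -0.32 (SE 0.078, limma adjusted p = 0.0027) in TPM and -0.91 (SE 0.055, adjusted p = 1.55e-07) after scaling. In all genes tested 16.3% were called lower in TPM.

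Vha100-1, the isoform known in flies from neurons and synaptic vesicles, measured 51.5, 48.6, 53.6, 44.9 and 47.9 TPM in dHNF4 RNAi libraries, against 31.6, 36.7, 33.7, 30.4 and 31.5 TPM in control libraries. The groups did not overlap, with a log2 fold change of 0.58 (SE 0.068, limma adjusted p = 8.94e-06), while 66.9% of all genes tested were called higher in TPM. After median-of-ratios scaling its difference was -0.01 (SE 0.055, adjusted p = 0.862). Summed markers of neurons ran from 7.36 to 10.2 TPM in dHNF4 RNAi libraries and from 5.74 to 7.87 TPM in control libraries, and their part in the level of Vha100-1 was not tested. Vha100-4 measured 118, 94.3, 97.3, 116 and 116 TPM in dHNF4 RNAi libraries, against 72.0, 86.3, 78.7, 94.8 and 84.2 TPM in control libraries. Its groups touched, since dHNF4 RNAi replicate 2 lay just under control replicate 4. Its log2 fold change was 0.38 (SE 0.091, limma adjusted p = 0.00232) in TPM but -0.22 (SE 0.085, adjusted p = 0.0373) after median-of-ratios scaling. Vha100-3 was at 0 in every library except dHNF4 RNAi replicate 3, where it was at 0.0169 TPM.

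A share within a subunit does not move with the scaling of the library, and the shares of subunit a separated the groups. Vha100-5 held 33.1%, 38.8%, 37.7%, 36.6% and 35.5% of the TPM of subunit a in dHNF4 RNAi libraries, against 47.9%, 43.3%, 48.0%, 46.5% and 40.5% in control libraries. Each dHNF4 RNAi library lay below each control library, and the difference of means was -8.89 percentage points. The two-sided exact permutation p was 0.00794, the smallest that 5 libraries against 5 can give, and 0.0635 after Benjamini-Hochberg adjustment over the leading genes of the 8 subunits with several genes. Vha100-4 held 20.1%, 17.03%, 16.2%, 19.2% and 20.0% in dHNF4 RNAi libraries, against 10.8%, 11.5%, 11.6%, 12.1% and 13.2% in control libraries, a difference of 6.66 points with no overlap. Vha100-1 held 8.73%, 8.78%, 8.93%, 7.44% and 8.26% in dHNF4 RNAi libraries, against 4.74%, 4.88%, 4.98%, 3.89% and 4.92% in control libraries, a difference of 3.74 points with no overlap. These 2 genes were compared after their values were seen, and both had an exact permutation p of 0.00794, and 0.0106 after adjustment over the 4 genes compared within subunit a. The share of Vha100-2 was 36.7% ± 1.01 in dHNF4 RNAi libraries and 38.3% ± 2.56 in control libraries, a difference of -1.51 points within the spread of the libraries (exact permutation p = 0.286). The shares of 1 subunit add to a fixed total, so these 4 differences are not independent.

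**Figure D2:**
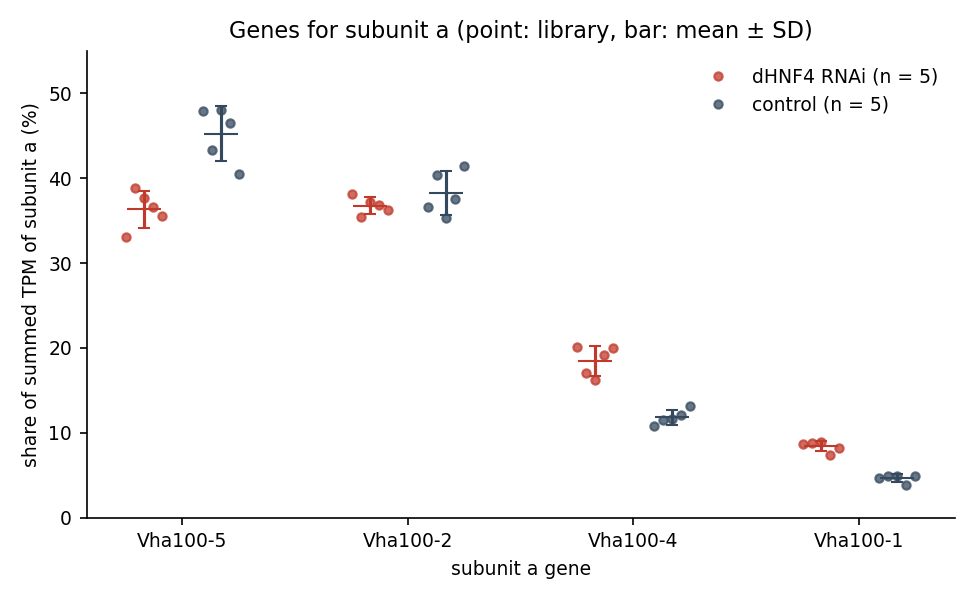
Share in percent of the summed TPM of subunit a held by Vha100-5, Vha100-2, Vha100-4 and Vha100-1, with a point for each library, dHNF4 RNAi left of control, and bars at the mean ± SD of each group. The share of Vha100-5 is lower and those of Vha100-4 and Vha100-1 are higher in every dHNF4 RNAi library than in any control library, and Vha100-2 overlaps.

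The neighbouring pair of subunit a genes went apart. The ratio of Vha100-4 to Vha100-2 was 0.526, 0.481, 0.435, 0.522 and 0.552 in dHNF4 RNAi libraries, against 0.295, 0.285, 0.329, 0.323 and 0.318 in control libraries. The groups were separate, with a mean ratio of 0.503 ± 0.0458 in dHNF4 RNAi libraries and 0.310 ± 0.0192 in control libraries. The ratio of Vha100-4 to Vha100-5 was 0.513 ± 0.0769 in dHNF4 RNAi libraries and 0.264 ± 0.0377 in control libraries. The sum over subunit a was 585 ± 20.1 TPM in dHNF4 RNAi libraries and 703 ± 60.9 TPM in control libraries, so that the gain of the rarer pair did not make up in TPM for the loss of the abundant pair. After median-of-ratios scaling the rarer pair showed no gain, with Vha100-4 at -0.22 and Vha100-1 at -0.01. The sum was then 473.9 in dHNF4 RNAi libraries and 862.5 in control libraries.

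The other V0 subunits moved the other way or little in TPM. Vha16-1, for subunit c, measured 1562, 1250, 1387, 1595 and 1574 TPM in dHNF4 RNAi libraries, against 1239, 1357, 1270, 1623 and 1300 TPM in control libraries. VhaPPA1-1, for c'', measured 544, 478, 548, 557 and 539 TPM in dHNF4 RNAi libraries, against 459, 503, 498, 551 and 484 TPM in control libraries. Both ring genes overlapped between groups and were not called in TPM, with log2 fold changes of 0.12 for Vha16-1 (limma adjusted p = 0.251) and 0.10 for VhaPPA1-1 (adjusted p = 0.182), while both were lower after median-of-ratios scaling, at -0.48 and -0.50. VhaAC39-1, for subunit d, measured 385, 355, 370.4, 403 and 385 TPM in dHNF4 RNAi libraries, against 304, 323, 313, 356 and 312 TPM in control libraries. One control library, replicate 4, reached just above the lowest dHNF4 RNAi library, and the log2 fold change of 0.24 (SE 0.059, limma adjusted p = 0.00246) turned to -0.36 (adjusted p = 0.000286) after scaling.

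The e subunit has 4 genes, of which VhaM9.7-b held nearly all the transcript. It measured 509, 515, 523, 562 and 551 TPM in dHNF4 RNAi libraries, against 418, 469, 441, 502 and 456 TPM in control libraries, and the groups did not overlap. The log2 fold change was 0.22 (SE 0.060, limma adjusted p = 0.00533) in TPM and -0.38 (adjusted p = 0.000153) after median-of-ratios scaling. VhaM9.7-c measured 29.4, 28.1, 26.5, 30.0 and 24.6 TPM in dHNF4 RNAi libraries, against 16.8, 19.5, 17.4, 20.1 and 19.9 TPM in control libraries. Its groups did not overlap, and its log2 fold change was 0.54 (SE 0.074, limma adjusted p = 3.04e-05) in TPM and -0.04 (adjusted p = 0.65) after scaling. VhaM9.7-c overlaps the gene Teh2 on the same strand and CG18675 on the opposite strand, so the division of reads there is uncertain. Its share of subunit e was 4.95% ± 0.448 in dHNF4 RNAi libraries and 3.92% ± 0.153 in control libraries, with no overlap between the groups. VhaM9.7-a held 0.149% ± 0.0474 in dHNF4 RNAi libraries and 0.286% ± 0.0825 in control libraries, also with no overlap. VhaM9.7-b held 94.9% ± 0.443 in dHNF4 RNAi libraries and 95.8% ± 0.188 in control libraries (exact permutation p = 0.0159, and 0.0636 adjusted over the 8 subunits).

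VhaM9.7-a was the third Vha gene called lower in TPM, at a level near the filter. It measured 0.534, 1.08, 0.533, 1.07 and 0.974 TPM in dHNF4 RNAi libraries, against 1.81, 1.14, 1.03, 1.24 and 1.54 TPM in control libraries. The groups overlapped, and the log2 fold change of -0.36 (SE 0.14, limma adjusted p = 0.0279) was no longer called when control replicate 1, control replicate 5, dHNF4 RNAi replicate 1 or dHNF4 RNAi replicate 3 was left out. VhaAC39-2, a second gene of subunit d, was called higher in TPM and averaged 1.53 ± 0.925 TPM in dHNF4 RNAi libraries and 0.683 ± 0.0563 TPM in control libraries. Its values of 0.965, 1.86, 0.534, 2.93 and 1.34 TPM in dHNF4 RNAi libraries enclosed the control range of 0.595 to 0.741 TPM. The log2 fold change was 0.51 (limma adjusted p = 0.0413), was lost in 8 of the 10 fits that left out a library and was 0.22 (adjusted p = 0.333) after median-of-ratios scaling. VhaAC45, whose product assists assembly and transport of the pump, measured 514, 478, 510, 528 and 529 TPM in dHNF4 RNAi libraries, against 457, 524, 477, 559 and 475 TPM in control libraries. The groups overlapped, and the log2 fold change was 0.04 (limma adjusted p = 0.563) in TPM and -0.56 (adjusted p = 6.11e-06) after scaling. ATP6AP2, for another accessory protein of the pump that lies outside the name rule and was chosen after its values were seen, averaged 437 ± 25.5 TPM in dHNF4 RNAi libraries and 410.2 ± 31.8 TPM in control libraries, at 0.09 in TPM (limma adjusted p = 0.216) and -0.51 after scaling.

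**Figure D3:**
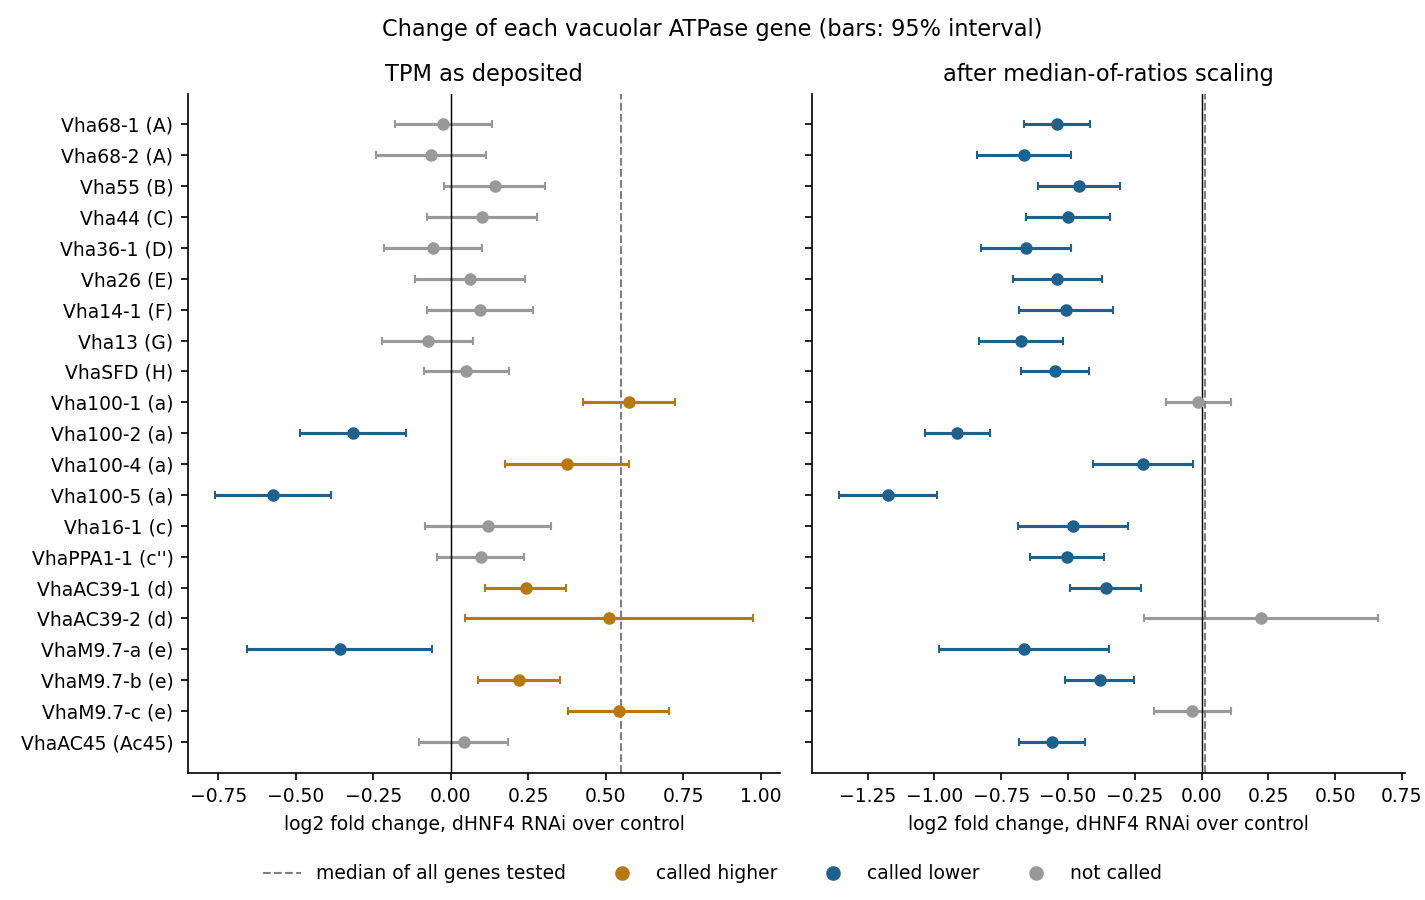
Log2 fold change of the 21 Vha genes tested, dHNF4 RNAi over control, with 95% intervals from limma, in TPM on the left and after median-of-ratios scaling on the right, beside the median of all genes tested. In TPM 20 of the 21 lie below the all-gene median of 0.55 and Vha100-1 lies just above it. After scaling 18 of the 21 are called lower, where 35.8% of all genes tested are.

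The rare copies were all but silent. Vha68-3, Vha36-2, Vha36-3, Vha14-2, Vha100-3, Vha16-2, Vha16-3, Vha16-4, Vha16-5, VhaPPA1-2 and VhaM9.7-d averaged under 1 TPM, so they were not tested, and their highest value in any library was 0.476 TPM, for Vha36-3. Vha16-2 and Vha16-3, which lie 985 bases apart on 3L, were listed at 0 in every library. VhaPPA1-2, whose end lies 2052 bases from VhaPPA1-1 on 3R, was listed at 0 in every control library and in dHNF4 RNAi replicate 1, and at 0.0958 to 0.115 TPM in the other dHNF4 RNAi libraries. Vha68-3, 178 bases beyond Vha68-2 on 2L, ran from 0.187 to 0.423 TPM in dHNF4 RNAi libraries and from 0.0883 to 0.244 TPM in control libraries. The leading genes of subunits A, D, F, c, c'' and d therefore held at least 99.2% of their subunit in every library of both groups. Markers of the testis, where several such copies are known to be transcribed, summed to 2.83 to 7.61 TPM in dHNF4 RNAi libraries and 2.75 to 5.92 TPM in control libraries, and 22 of 23 averaged under 1 TPM.

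The summed sectors shifted slightly against each other. V1 genes summed to 4902 ± 317 TPM in dHNF4 RNAi libraries and 4864 ± 379 TPM in control libraries, and V0 genes to 3534 ± 224 TPM in dHNF4 RNAi libraries and 3359 ± 291 TPM in control libraries. The ratio of V0 to V1 within a library was 0.738, 0.724, 0.7002, 0.713 and 0.731 in dHNF4 RNAi libraries, against 0.694, 0.697, 0.678, 0.6998 and 0.682 in control libraries. The groups were separate by a narrow margin, and no test was made on sums over chosen genes. Within V0 the sum of subunit d was 381 ± 18.5 TPM in dHNF4 RNAi libraries and 322 ± 20.3 TPM in control libraries, and that of subunit e was 560.4 ± 23.3 TPM in dHNF4 RNAi libraries and 477 ± 32.8 TPM in control libraries, whereas subunit a was lower. After median-of-ratios scaling all 32 genes summed to 7244 ± 465 in dHNF4 RNAi libraries and 10710 ± 790 in control libraries, a ratio of 0.677.

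**Figure D4:**
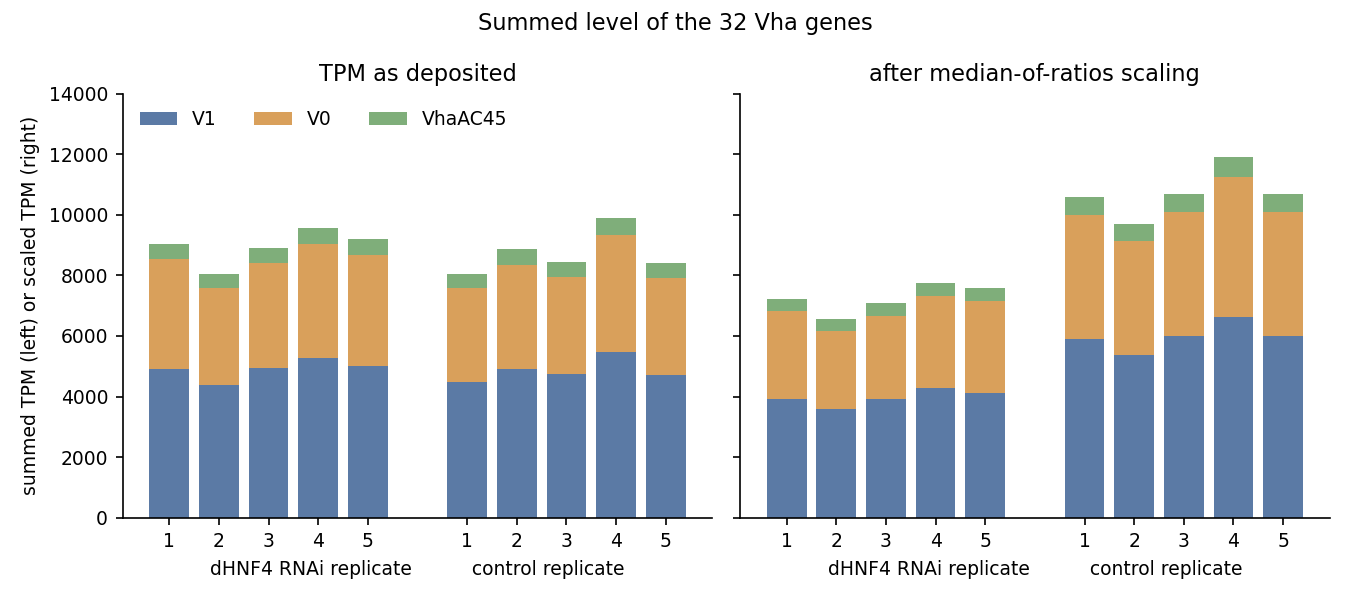
Summed level of the V1, V0 and accessory Vha genes in each library, as stacked bars starting at 0, in TPM on the left and after median-of-ratios scaling on the right. In TPM the dHNF4 RNAi libraries (8058 to 9552) overlap the control libraries (8035 to 9877), whereas after scaling every dHNF4 RNAi library lies below every control library.

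Within a library many of the abundant genes deviated from their group in the same direction. Over the 15 Vha genes that averaged 100 TPM or more, dHNF4 RNAi replicate 4 was the highest dHNF4 RNAi library in 9 and dHNF4 RNAi replicate 2 the lowest in 12. Control replicate 4 was the highest control library in 14 and control replicate 1 the lowest in 11. The median coefficient of variation of these genes was 6.99% among dHNF4 RNAi libraries and 8.29% among control libraries, and for the share of each gene in the Vha sum it was 4.07% among dHNF4 RNAi libraries and 2.75% among control libraries. Markers of the Malpighian tubule, a renal tissue attached to the gut that holds much of this pump, summed to 103, 89.0, 107, 168 and 52.8 TPM in dHNF4 RNAi libraries, against 78.2, 120, 97.6, 140.0 and 251.6 TPM in control libraries. The part of tubule RNA in these levels was not tested.

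Counted over the 21 genes tested, 6 were called higher in TPM (Vha100-1, Vha100-4, VhaAC39-1, VhaAC39-2, VhaM9.7-b and VhaM9.7-c), 3 lower (Vha100-2, Vha100-5 and VhaM9.7-a) and 12 were not called, where 66.9% of all genes tested were higher and 16.3% lower. Their median log2 fold change was 0.09 against 0.55 over all genes tested, and 20 of the 21 lay below the all-gene median. After median-of-ratios scaling none was called higher, where 35.6% of all genes tested were, 18 were called lower, where 35.8% of all genes tested were, and 3 were not called (Vha100-1, VhaAC39-2 and VhaM9.7-c). The median was then -0.51 for the Vha genes and 0.01 for all genes tested. Vha100-2, Vha100-5 and VhaM9.7-a were the genes called lower on both scales, and 3 genes called higher in TPM (Vha100-4, VhaAC39-1 and VhaM9.7-b) were called lower after scaling. In TPM the groups did not overlap in 5 of the 21 genes, 3 higher and 2 lower, where 72.0% of all genes tested did not overlap, 60.3% higher and 11.7% lower. After scaling they did not overlap in 17 genes, all lower, where 29.4% of all genes tested were lower without overlap. Abundant genes in general lay low as well. Among all 1156 genes that averaged 100 TPM or more, a class added after the values were seen, the median was 0.29 in TPM and -0.31 after scaling, and 57.8% were lower after scaling, while the 15 Vha genes of that class had medians of 0.06 and -0.54 and all 15 were lower after scaling. Quantile normalization, which gives every library the same distribution of values, instead called 4 Vha genes higher and 4 lower. Of all 8784 genes tested it called 3888 higher and 2557 lower.

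The authors' deposited table gave log2 fold changes for 23 of the 32 genes, with a median of -0.44 where all 10494 genes in it had a median of 0.13. In the authors' deposited table Vha100-2 (-0.89, unadjusted p = 0.000167) and Vha100-5 (-0.86, unadjusted p = 0.00128) were the lowest Vha genes with an unadjusted p under 0.05. Vha68-2 (-0.62), Vha26 (-0.51) and VhaSFD (-0.47) also passed as lower in the authors' deposited table, and VhaAC39-2 (1.68, unadjusted p = 0.00482) passed as higher. The authors' deposited table had 39.8% of its genes past that threshold, 17.9% lower and 21.9% higher. The authors' deposited table gave 0.13 for Vha100-1, -0.27 for Vha100-4 and 0.18 for VhaM9.7-a (unadjusted p = 0.801), none past the threshold, and the sign of VhaM9.7-a there is opposite to that of the fit on TPM.

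The counts of related genes stand against the shares of all genes tested, of which 66.9% were higher and 16.3% lower in TPM, and 35.6% were higher and 35.8% lower after scaling. All 6 genes listed for assembly and regulation were called higher in TPM, with a median log2 fold change of 0.42, below the all-gene median, and after median-of-ratios scaling 2 of the 6 were higher and 4 lower. Rbcn-3A, a rabconnectin needed for assembly of the pump, averaged 59.9 TPM in dHNF4 RNAi libraries and 29.8 TPM in control libraries, with a log2 fold change of 0.99 (limma adjusted p = 3e-06). It was higher after scaling as well (0.40, adjusted p = 0.0012). CG5969 was also higher on both scales, at 0.93 in TPM (limma adjusted p = 4.19e-06), while mtd, of the TLDc domain family, and CG7071 were higher in TPM, at 0.47 and 0.24, but lower after scaling. Mitf, the transcription factor known in flies to bind genes of this pump, averaged 39.7 TPM in dHNF4 RNAi libraries and 30.5 TPM in control libraries, at 0.36 in TPM and -0.22 after scaling.

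Of the nutrient-sensing genes, whose products dock on the lysosome with the pump, all 17 were called higher in TPM, where 66.9% of all genes tested were, with a median of 0.63. After median-of-ratios scaling 5 were higher, 6 lower and 6 not called, shares near those of all genes tested (35.6% higher and 35.8% lower). BHD, the fly folliculin, averaged 14.6 TPM in dHNF4 RNAi libraries and 6.07 TPM in control libraries (log2 fold change 1.15, limma adjusted p = 6.34e-08). Nprl3, of the GATOR1 complex, rose by 1.00, Tsc1 by 0.74 and CG14812 by 0.74 on the log2 scale in TPM, and all 4 genes were also higher after scaling. Of 22 lysosomal enzymes and membrane proteins, 8 were higher and 8 lower in TPM (all genes tested 66.9% and 16.3%), and 2 were higher and 18 lower after scaling (all genes tested 35.6% and 35.8%). Among them the beta-galactosidase Gal averaged 2.32 TPM in dHNF4 RNAi libraries and 320 TPM in control libraries, and the mannosidase LManV averaged 117 TPM in dHNF4 RNAi libraries and 1462 TPM in control libraries. Hexo1, a hexosaminidase, and Cln3, a lysosomal membrane protein, fell by 1.17 and 1.28 on the log2 scale in TPM and were lower after scaling. The 2 members called higher on both scales were Npc2a and Ppt1. Npc2a averaged 217 TPM in dHNF4 RNAi libraries and 50.3 TPM in control libraries. Ppt1 averaged 23.9 TPM in dHNF4 RNAi libraries and 12.6 TPM in control libraries.

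Of 22 ion pumps and exchangers that work beside the proton pump, 7 were higher and 9 lower in TPM, where 66.9% of all genes tested were higher and 16.3% lower. After scaling 2 were higher and 15 lower, where 35.6% of all genes tested were higher and 35.8% lower. The chloride transporter gene ClC-b averaged 31.3 TPM in dHNF4 RNAi libraries and 13.1 TPM in control libraries. The anion exchanger gene Ae2 averaged 8.97 TPM in dHNF4 RNAi libraries and 32.7 TPM in control libraries, and the chloride channel gene ClC-a averaged 12.96 TPM in dHNF4 RNAi libraries and 31.9 TPM in control libraries. These 3 kept direction and call after scaling, while nrv2, of the sodium pump, was higher in TPM (0.67, limma adjusted p = 9.81e-06) and not called after scaling. The other sodium pump genes of the list, Atpalpha, nrv1 and nrv3, were called lower on both scales. Their log2 fold changes in TPM were -0.44, -0.54 and -0.28. In the list for the acid region of the midgut, 7 of 13 were higher and 5 lower in TPM, and 3 higher and 6 lower after scaling, beside the same shares of all genes. Zip42C.1, a zinc transporter, averaged 0.0468 TPM in dHNF4 RNAi libraries and 5.56 TPM in control libraries. The carbonic anhydrase gene CAH7 averaged 7.42 TPM in dHNF4 RNAi libraries and 75.1 TPM in control libraries, CAHbeta fell by 0.95 and Cdk5 rose by 0.78 on the log2 scale in TPM, all 4 in the same direction after scaling.

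Marker lists of the cells in the sample were given beside these levels, and their part in the Vha values was not tested. Of all genes tested 66.9% were higher and 16.3% lower in TPM, and 35.6% higher and 35.8% lower after median-of-ratios scaling. Enterocyte markers summed to 49180 to 61220 TPM in dHNF4 RNAi libraries and 66460 to 78490 TPM in control libraries. Of these markers, 2 of 10 were higher and 5 lower in TPM, and 2 higher and 8 lower after scaling. The lower sum came mainly from Amy-p, Mal-A1 and Amy-d, which averaged 8595, 6888 and 1233 TPM in dHNF4 RNAi libraries. In control libraries these genes averaged 18270, 14480 and 5156 TPM. The 2 markers called higher on both scales were mex1 and nub. Their log2 fold changes were 0.866 and 1.201 in TPM, and 0.265 and 0.607 after scaling. Whether the number of enterocytes differed was not tested. Progenitor markers summed to 160 to 173 TPM in dHNF4 RNAi libraries and 14.2 to 42.2 TPM in control libraries, with 8 of 8 higher on both scales. Fat body markers summed to 953 to 1172 TPM in dHNF4 RNAi libraries and 1703 to 2172 TPM in control libraries, with 4 of 5 lower in TPM and 5 of 5 after scaling. Adh made up most of this sum, at a mean of 912 TPM in dHNF4 RNAi libraries and 1659 TPM in control libraries. In dHNF4 RNAi libraries apolpp averaged 5.46 TPM and Lsp2 0.0406 TPM, against 10.2 TPM and 3.83 TPM in control libraries. Enteroendocrine markers had 5 of 11 higher and 4 lower in TPM, and 1 higher and 7 lower after scaling. Visceral muscle markers had 4 of 11 lower in TPM and 11 of 11 after scaling, and Malpighian tubule markers had 3 of 8 lower on both scales. Neuron markers had 2 of 3 higher in TPM, and none higher and 1 lower after scaling. Of the accessory gland markers, 2 of 3 were higher in TPM and 1 after scaling, and the 1 testis marker tested was lower on both scales. The accessory gland markers summed to 1.88 to 44.6 TPM in dHNF4 RNAi libraries and 0.430 to 4.33 TPM in control libraries.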

How the data were processed

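RNA-seq libraries of adult male midguts, 5 labelled dHNF4 RNAi and 5 labelled control, were compared. The authors deposited TPM per gene, without depth, in a table of 14310 genes. The submitters' processing notes name FastQC, Trim Galore, kallisto, edgeR and the build BDGP6, without versions or roles. RUVSeq is also in the name of the deposited workbook, but its use is not given in the sources used here. Beside the TPM the authors deposited their own comparison, with log2 fold changes and unadjusted p-values, and these were used as theirs. TPM is a share of the library, and similar gene copies divide reads by estimation, so that the levels of close copies are uncertain.

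Vha genes were those whose deposited name begins with Vha. Coordinates came from the reference annotation (BDGP6.54). Of the 32 genes, 31 matched by identifier and Vha44 by symbol. Of 14310 identifiers, 14263 matched. Groups and replicate numbers came from the labels. The 8784 genes averaging 1 TPM or more were fitted as log2(TPM + 1) with limma 3.58.1 in R 4.3.3 (two-sided, mean-variance trend, no covariate, Benjamini-Hochberg over all 8784), where a pseudocount of 1 understates changes of low genes. Isoform shares used exact permutation tests over libraries in Python 3.11.15 with scipy 1.17.1. The fit was tested on simulated data with independent noise and known changes in a small part of the genes. That simulation held no shift of most genes, so it cannot decide between the scalings.

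Values in every library were given for Hnf4, the leading gene of each subunit, each Vha gene called lower and each other Vha gene averaging 5 TPM or more in a group and a log2 fold change over 0.5 from the all-gene median. From each related list up to 4 called members with the smallest adjusted p were named. Vha100-1, Vha100-4, VhaM9.7-c, VhaAC39-2, ATP6AP2, Mitf, Atpalpha, nrv1, nrv3, Npc2a and Ppt1 were given in addition, after their values were seen. The members and lists were chosen with earlier results of these data known. Other settings tried were no filter or a filter at 5 TPM, a pseudocount of 0.1 or 5, median-of-ratios scaling, quantile normalization, rescaling after leaving out mitochondrial genes and the 20 genes of highest level, a replicate block, moderation without trend or with robust estimates, and leaving out each library. Promoter and protein sequences were not analysed here.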

Additional observations from a re-analysis of the deposited data

Results flagged for a closer look

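Of 74 groups of 5 values examined, 4 held a library far from the other 4, where chance gives about 1 in 20. In dHNF4 RNAi replicate 2, Vha68-1 was at 5.51 TPM where the other dHNF4 RNAi libraries were at 6.21 to 6.40 TPM. In the same library Vha68-2 was at 732 TPM, with the others at 880 to 928 TPM, and VhaPPA1-1 was at 478 TPM, with the others at 539 to 557 TPM. In control replicate 4, Vha100-1 held 3.89% of subunit a, where the other control libraries held 4.74% to 4.98%.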

How the results depend on the processing

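Scaling set the direction of most abundant Vha genes. Under median-of-ratios scaling 18 Vha genes were called, 0 higher and 18 lower, and with each library left out as well, an alternative chosen after seeing the data, 17 to 18 were lower. Rescaling without the most abundant genes gave 3 higher and 6 lower, and over all genes 5533 higher and 1693 lower. Over all genes median-of-ratios scaling gave 3129 higher and 3145 lower and quantile normalization 3888 higher and 2557 lower. In the related lists 26 were higher and 83 lower after median-of-ratios scaling, and 40 higher after quantile normalization. Hnf4 was at -0.35 after median-of-ratios scaling, -0.18 after quantile normalization and 0.12 after rescaling (limma adjusted p = 0.202), and at 0.19 to 0.30 with a library left out.

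After median-of-ratios scaling the log2 fold change turned to -0.46 for Vha55, -0.50 for Vha44, -0.54 for Vha26, -0.51 for Vha14-1, -0.55 for VhaSFD, -0.012 for Vha100-1, -0.22 for Vha100-4, -0.48 for Vha16-1, -0.50 for VhaPPA1-1, -0.36 for VhaAC39-1, -0.38 for VhaM9.7-b, -0.035 for VhaM9.7-c and -0.56 for VhaAC45. After rescaling it turned to -0.026 for Vha44, -0.065 for Vha26, -0.032 for Vha14-1, -0.075 for VhaSFD, -0.007 for Vha16-1, -0.030 for VhaPPA1-1 and -0.084 for VhaAC45, and after quantile normalization to 0.078 for Vha68-2. Summed log2 ratios were -0.56 (all Vha genes), -0.59 (V1), -0.53 (V0) and -0.56 (VhaAC45) after median-of-ratios scaling, and -0.088, -0.114, -0.051 and -0.084 after rescaling.

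With a library left out, 7 to 9 Vha genes were called, 5 to 6 higher and 2 to 3 lower, and Vha68-1 ranged from -0.055 to 0.012. Over all genes these fits called 7170 to 7337, with 5778 to 5981 higher and 1340 to 1458 lower. Changes of share then ran from -0.0158 to 0.00524 points for Vha36-1, -0.00485 to 0.00167 for Vha16-1, -0.0200 to -0.0144 for VhaPPA1-1 and -0.248 to -0.103 for VhaAC39-1. Libraries with the same replicate number correlated in their deviations at -0.165, 0.134, 0.0237, 0.358 and -0.331 for numbers 1 to 5. The signs were mixed, so that the numbers give no pairing. The best matching control library was number 4 for dHNF4 RNAi replicates 1, 3 and 4, and number 1 for replicates 2 and 5. The replicate block called 9 Vha genes, 6 higher and 3 lower, and over all genes 5849 higher and 1400 lower. By sign flips of 5 pairs the share differences were -8.89 points for Vha100-5 (exact p = 0.0625, the smallest possible), -0.0160 for VhaPPA1-1 and -0.895 for VhaM9.7-b (both exact p = 0.125). Pseudocounts, filters and moderation left 7 to 9 Vha genes called. The cause of these shifts was not tested. The promoter motif alternative was not run. TPM keep no depth, so precision at low levels is unknown.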
